A study of Mus musculus with 16 samples.

Results

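P19 mouse embryonal carcinoma cells that had received a let-7a mimic together with siRNAs against Sfpq were compared with control P19 cells, gene by gene, on 1-colour expression arrays. The comparison used the 4 arrays of each condition, 8 of the 16 arrays of the series, chosen by their titles, and every gene those arrays measured. The other 8 arrays carried cells with either treatment alone and shared the same control samples. All cells were of the P19 line, and per the methods siRNAs and mimics were transfected at 24 nM for 48 h, with a pool of 4 siRNAs against Sfpq. For the arrays, neither the labels nor the methods said which control oligonucleotides the control and single-treatment cells received. Arrays 1 and 2 of each condition differed by no more than repeated spots of 1 probe, so their mean was counted as 1 sample. This left 3 samples in each condition, given below in the order replicates 1 and 2, replicate 3, replicate 4. Nothing in the labels placed the replicates in separate cultures, so the p-values measured only the spread between these samples. The number of arrays limited the precision.

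let-7a is a short RNA that guides Argonaute proteins to messenger RNAs carrying a match to its seed, bases 2 to 8, and lowers their stability and translation. The let-7 family is scarce in pluripotent cells, where Lin28a blocks its maturation, and accumulates during differentiation, when its targets among the oncofetal and growth genes are shut down. Sfpq is an RNA- and DNA-binding protein of the nucleus that works with Nono and Pspc1 in splicing, in transcription and in the nuclear bodies called paraspeckles. P19 cells resemble cells of the early embryo and can give neurons, muscle and endoderm in culture.

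The mimic is shown by its mature sequence from RefSeq, with the seed in capitals, because the whole comparison rests on it. The array's own probe sequences for Hmga2 and Lrig3 follow, with the 7-letter seed match CTACCTC in capitals. Hmga2 is the classic let-7 target. Lrig3 had the lowest change among the ranked bright probes with the match, outside the let-7 targets, whose samples did not overlap. Only probes with an unbroken stretch of design coordinates were ranked, and those of a single chromosome were left out.
mmu-let-7a-5p: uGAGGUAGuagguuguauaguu
Hmga2: aacacactaCTACCTCttaagtccc
Lrig3: acgCTACCTCagctgggct
The microRNA lies on GRCm38.p6 at chr13:48538239-48538260, minus strand, in Mirlet7a-1, and 10 other mature mouse microRNAs in the table share its seed. In mm9, the build of the array design, the Hmga2 stretch lies at chr10:119798739-119798763 on the minus strand and the Lrig3 stretch at chr10:125452006-125452024 on the plus strand. A match inside a probe only says that these letters lie in the measured stretch of the transcript.

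Sfpq mRNA itself was the check of the labels. On the log2 scale of normalized intensity, on which 1 unit is a doubling, Sfpq stood at 12.07, 11.98 and 11.99 in control and at 11.31, 11.50 and 11.40 in cells with both treatments. All 3 samples with both treatments lay below all 3 control samples. The means were 12.01 ± 0.049 and 11.40 ± 0.092 (SD, n = 3), so that Sfpq mRNA was 34.3% below control, by 40.8%, 28.5% and 33.1% in the 3 samples. The exact permutation test over samples gave p = 0.1, two-sided, the smallest that 3 against 3 samples can give, and limma across all genes gave a log2 change of -0.61 (SE 0.19) with adjusted p = 0.183, or 0.0554 with the replicate as a block.

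With siSfpq alone the 3 samples stood at 10.56, 11.47 and 10.61, which is 65.0%, 30.0% and 61.3% below control. Replicates 1 and 2 and replicate 4 therefore held more Sfpq mRNA with both treatments than with siSfpq alone, while replicate 3 held nearly the same amount in each. With let-7a alone the levels lay between 11.90 and 12.04. These levels are means over the probes of Sfpq, which differed in size. Their log2 changes were -0.79 and -0.43 with both treatments, and -1.41 and -0.86 with siSfpq alone. The depth of the Sfpq knockdown thus differed between the conditions that received siSfpq, and its part in the results below was not tested.

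**Figure D1:**
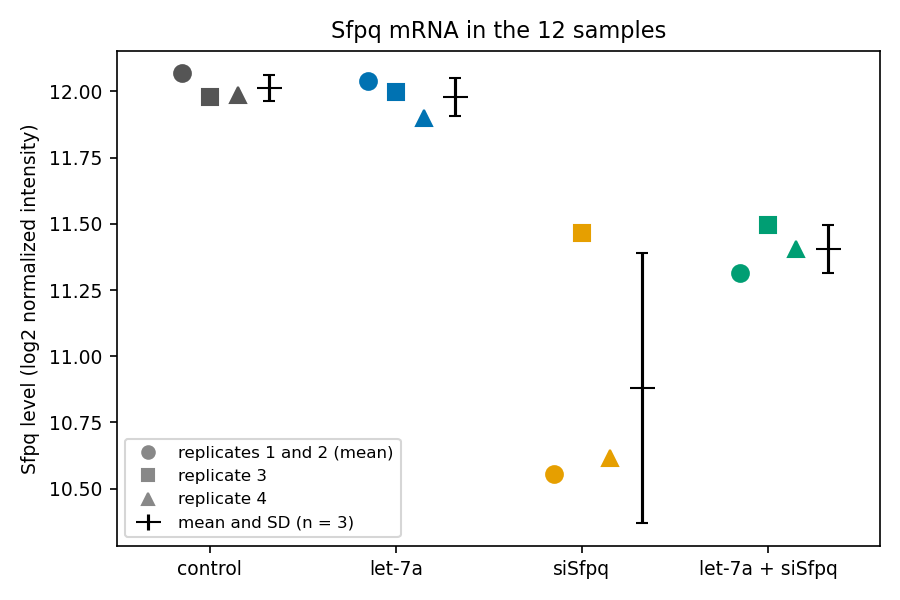
Sfpq mRNA (log2 normalized intensity) in the 12 samples, with 1 point for each sample, the shape giving the replicate and the bar the mean and SD of 3 samples. The samples with both treatments sit between 11.31 and 11.50, all below the control samples, and 2 of the 3 siSfpq samples lie lower still, at 10.56 and 10.61.

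The marker genes of P19 cells were present throughout. All 7 of them, among them Pou5f1, Sox2 and Utf1, passed the scanner's background test on every array of both conditions, with mean levels of 11.35 to 11.52 in control and 11.30 to 11.33 with both treatments. The 5 neuronal markers were also above background on every array, at mean levels of 10.73 to 11.46 in control and 10.96 to 11.44 with both treatments. Of the 5 endoderm markers, 1 was above background on all control arrays and 2 on all arrays with both treatments. The 3 fibroblast markers were detected on every array, at mean levels of 7.08 to 7.37 in control and 7.36 to 7.47 with both treatments. Among them Thy1 stood at a mean of 8.43 in control and 9.42 with both treatments (limma adjusted p = 0.530), while Col1a1 and Col3a1 were slightly lower with both treatments. Of the 3 muscle markers 1, and of the 2 trophoblast markers none, was detected on all arrays of either condition. The part of other cells in the results was not tested. Of the 59305 spots, 34565 to 37609 were well above background on the control arrays and 36342 to 38023 on those with both treatments.

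With both treatments 236 genes were higher than in control, 1.29% of the 18247 tested, and 42 were lower, 0.230% (limma, adjusted p under 0.05). In 140 of the 236 and 10 of the 42 the change was at least 2-fold. Each single treatment, set against the same control samples, changed more genes. let-7a alone gave 896 higher (4.91%) and 373 lower (2.04%), and siSfpq alone gave 1149 higher (6.30%) and 1337 lower (7.33%). The spread of log2 changes over all genes, as an SD, was 0.370 with both treatments, 0.466 with let-7a and 0.545 with siSfpq. By sample it was 0.444, 0.386 and 0.469 with both treatments against 0.692, 0.362 and 0.755 with siSfpq, so in replicate 3 the combination did not have the smaller spread.

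The size of these counts rested on the replicates. With the replicate as a block 974 genes were higher (5.34%) and 514 lower (2.82%), among them all 236 and all 42. Without replicate 3, which stood apart from the others, 1890 were higher (10.4%) and 1439 lower (7.88%), and without replicate 4, or without replicates 1 and 2, limma called no gene, with 745 and 762 genes at an unadjusted p under 0.05 beside 2157 with all samples. Every call named below was therefore lost in those last fits.

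Of the 236 genes that rose, the median log2 change was 1.16 with both treatments, beside 0.84 with let-7a and 0.48 with siSfpq. In the 3 samples it was 1.25, 0.94 and 1.23. Of the 42 that fell, the median was -0.72, beside -0.40 with let-7a and -0.63 with siSfpq, and by sample it was -0.84, -0.56 and -0.84. Since a gene was called on these same values, the medians describe the genes and test nothing. In all 236 and all 42 the samples of the conditions did not overlap, so a lack of overlap adds nothing to a call below. Of the risers, 25 were not well above background on any control array, so they entered the test only through other conditions. In 177 the background test was passed on every array of either condition.

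The 10 largest rises among genes bright in both conditions ranged from 4.02-fold to 5.77-fold. In some of them siSfpq alone also gave a high value. Gm9112 stood at 6.05, 6.17 and 6.09 in control and at 8.83, 8.22 and 8.84 with both treatments, a log2 change of 2.53 (SE 0.32, limma adjusted p = 0.00345), beside 2.16 with siSfpq and 0.78 with let-7a. Nt5e, which encodes CD73, the enzyme that makes adenosine from AMP at the cell surface, stood at 5.23, 5.02 and 5.51 in control and at 8.24, 6.91 and 7.94 with both treatments, and its log2 changes were 2.45 with both and 2.98 with siSfpq, the value with let-7a also being above 0. Replicate 3 was the lowest sample of the combination for both genes.

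Tmem140 stood at 6.42, 5.77 and 6.35 in control and at 8.93, 7.69 and 9.04 with both treatments, and its changes were 2.37 with both, 2.20 with siSfpq and 0.23 with let-7a. Spic, an Ets-family transcription factor, stood at 5.83, 5.64 and 5.74 in control and at 8.61, 7.03 and 8.64 with both treatments, and its changes were 2.36, 2.27 and 0.10. Pla1a, a phospholipase that acts on phosphatidylserine, stood at 6.42, 6.18 and 6.44 in control and at 8.44, 8.34 and 8.34 with both treatments. In Pla1a the combination gave 2.03, below the 3.34 of siSfpq alone, and let-7a gave -0.21. The adjusted p of these 3 genes with both treatments was 0.0212, 0.0278 and 0.0472 (limma).

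In others of the 10 it was let-7a alone that gave the high value. Aldh1a1, a retinaldehyde dehydrogenase that makes retinoic acid, stood at 6.25, 6.56 and 5.76 in control and at 8.50, 8.26 and 8.49 with both treatments, a change of 2.23 (SE 0.23, limma adjusted p = 0.00109), beside 1.61 with let-7a and -0.08 with siSfpq. Strip2, a component of the STRIPAK phosphatase complexes, stood at 6.27, 5.68 and 6.31 in control and at 8.24, 8.02 and 8.29 with both treatments, and its changes were 2.10 with both, 2.36 with let-7a and -0.46 with siSfpq. Tlx2, a homeobox factor of the neural crest, stood at 5.43, 4.64 and 5.88 in control and at 7.42, 7.46 and 7.79 with both treatments, with changes of 2.24, 2.97 and 0.07. In these 3 genes replicate 3 of the combination lay close to the other samples.

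Plxdc1, a membrane protein of the plexin-domain family, stood at 4.53, 4.86 and 4.25 in control and at 6.84, 6.10 and 6.71 with both treatments, and rose by 2.01 (limma adjusted p = 0.0404) beside 2.22 with let-7a, while with siSfpq alone it was well above background on 1 of 4 arrays. Nptx2, a neuronal pentraxin of synapses, stood at 5.98, 6.23 and 5.74 in control and at 8.60, 7.13 and 8.30 with both treatments, and its changes were 2.03 with both, 1.86 with let-7a and 0.81 with siSfpq.

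**Figure D2:**
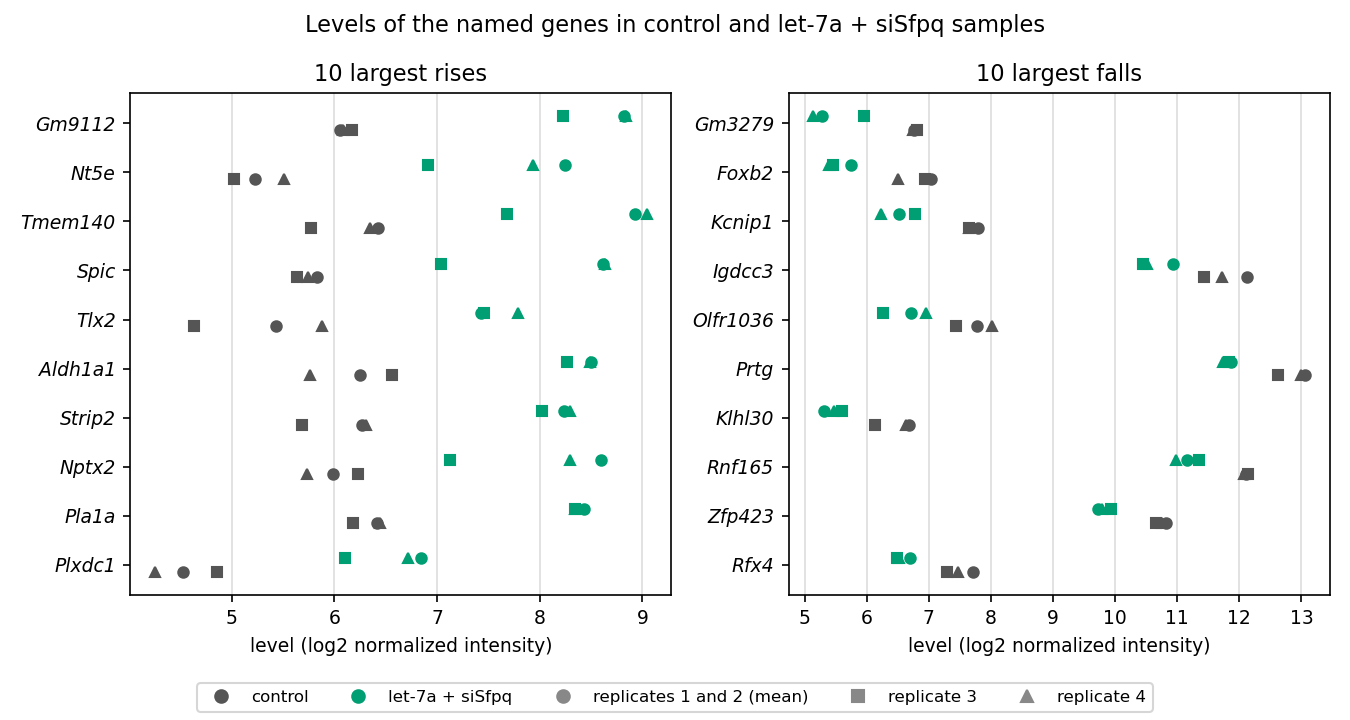
Levels (log2 normalized intensity) of the 10 largest rises and the 10 largest falls among genes bright in both conditions, with 1 point for each sample and the shape giving the replicate. The genes were chosen with no overlap between the conditions, and in Nt5e, Tmem140, Spic and Nptx2 replicate 3 with both treatments lies below the other samples of that condition.

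The 10 largest falls chosen in the same way, among bright genes, ranged from 1.89-fold to 2.48-fold. A pair of them, Igdcc3 and Prtg, encode receptors of the immunoglobulin superfamily related to DCC that mark the early neural tube and mesoderm. Prtg, or protogenin, stood at 13.06, 12.62 and 12.99 in control and at 11.86, 11.83 and 11.73 with both treatments, a log2 change of -1.08 (SE 0.12, limma adjusted p = 0.00186), beside -0.98 with let-7a and -0.47 with siSfpq. Igdcc3 stood at 12.12, 11.43 and 11.73 in control and at 10.92, 10.45 and 10.52 with both treatments, and its changes were -1.13 with both, -0.70 with let-7a and -1.21 with siSfpq. Both are among the brighter of the genes that fell, and both were lower in each sample.

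Zfp423, Foxb2 and Rfx4, which encode transcription factors, also fell. Zfp423, a zinc finger factor of neural development, stood at 10.82, 10.66 and 10.75 in control and at 9.73, 9.93 and 9.78 with both treatments, and all 3 of its probes fell. Foxb2, a forkhead factor, stood at 7.04, 6.94 and 6.51 in control and at 5.75, 5.46 and 5.39 with both treatments, and its changes were -1.30 with both, -1.60 with let-7a and -0.18 with siSfpq. Rfx4, a factor of the neural tube and of ciliary genes, stood at 7.71, 7.29 and 7.47 in control and at 6.70, 6.49 and 6.53 with both treatments. The adjusted p of the 3 was 0.0114, 0.0177 and 0.0404 (limma).

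In Gm3279, Kcnip1 and Rnf165 the larger single change was that of siSfpq. Kcnip1, a calcium-binding partner of Kv4 potassium channels, stood at 7.80, 7.65 and 7.65 in control and at 6.52, 6.78 and 6.23 with both treatments, with changes of -1.19 with both, -1.76 with siSfpq and -0.34 with let-7a. Rnf165, a ubiquitin ligase, stood at 12.11, 12.14 and 12.07 in control and at 11.16, 11.34 and 10.98 with both treatments, with changes of -0.94, -1.53 and -0.16. Gm3279 stood at 6.76, 6.81 and 6.75 in control and at 5.28, 5.96 and 5.14 with both treatments, with changes of -1.31, -1.66 and -0.42. In each of the 3, replicate 3 was the sample of the combination nearest to control. The other falls were Klhl30, a kelch-like gene, by -1.02 and Olfr1036, an olfactory receptor gene of a large family whose members can share probes, by -1.09.

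The let-7 targets, 28 mRNAs known from earlier work, bear on the question whether mRNAs that let-7 represses were lower when Sfpq was lowered too. None rose and 3 fell, beside 0.230% of all genes, and 24 of the 28 had a value below 0. Their median log2 change was -0.30, by sample -0.22, -0.33 and -0.30, beside -0.01 over all genes tested. Against the same control the median was -0.30 with let-7a alone, where 6 fell and 1 rose, beside 2.04% and 4.91% of all genes, and 0.06 with siSfpq alone, where 3 fell and 3 rose, beside 7.33% and 6.30%. With the replicate as a block 7 fell with both treatments, beside 2.82% of all genes, and without replicate 3 13 fell and 1 rose, beside 7.88% and 10.4%.

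Lin28a, the RNA-binding protein that blocks let-7 maturation, stood at 14.40, 14.34 and 14.42 in control and at 13.77, 13.77 and 13.90 with both treatments. It fell by 0.57 on the log2 scale (SE 0.11, limma adjusted p = 0.0351), beside -0.77 with let-7a and 0.07 with siSfpq. Dicer1, the enzyme that cuts microRNA precursors and itself a let-7 target, stood at 11.89, 11.74 and 11.86 in control and at 11.23, 11.22 and 11.28 with both treatments, a change of -0.59 (SE 0.086, limma adjusted p = 0.00669). Igf2bp2, an mRNA-binding protein of growth control, stood at 11.22, 11.29 and 11.21 in control and at 10.65, 10.85 and 10.59 with both treatments, a change of -0.54 (limma adjusted p = 0.0178). In all 3 genes the samples with both treatments lay close together. Dicer1 and Igf2bp2 had values below 0 with each single treatment, -0.46 and -0.39 with let-7a and -0.35 and -0.23 with siSfpq.

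Of the targets called only with the replicate as a block, Lin28b changed by -0.47 (blocked limma adjusted p = 0.0289), Trim71, a ubiquitin ligase of stem cells, by -0.38, Nr6a1, the germ cell nuclear factor, by -0.73 and E2f5 by -0.78. Hmga2, a chromatin protein of embryonic cells, changed by -0.48 with both treatments (limma adjusted p = 0.573), beside -1.40 with let-7a and 1.02 with siSfpq. Ccnd1, or cyclin D1, changed by -0.29 beside -0.92 and 1.30, and Cdk6, its kinase, by -0.09 beside -0.78 and 1.15. Myc changed by -0.35 beside -0.92 and 0.38. None of these 4 was called with both treatments.

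The Hmga2 probe whose sequence is printed above stood at 10.47, 9.92 and 10.44 in control and at 9.97, 9.64 and 9.83 with both treatments, where the highest sample of the combination lay just above the lowest control sample. The Lrig3 probe stood at 12.68, 12.56 and 12.78 in control and at 12.07, 12.29 and 12.21 with both treatments, a log2 change of -0.48 (limma adjusted p = 0.216). The choice of this probe required a lack of overlap and a low change, so neither is a result. The seed match CTACCTC lay in 111 of the 24536 probes kept, 0.452% of them, read in the sense of the mRNA only. Of these 67.6% had a value below 0 and none was called, with a median of -0.12. Its reverse complement, GAGGTAG, lay in 41 probes, of which 61.0% were below 0, with a median of -0.08. Over all probes 52.8% were below 0, with a median of -0.01. Probes cover a short stretch of each transcript, so most sites of a transcript lay outside this count.

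The study named 12 genes with canonical let-7a sites near bound Sfpq, and it chose them on experiments with this same cell system, so their direction is not independent evidence. Only Lin28a among them fell, beside 0.230% of all genes. Of the 12, 8 had values below 0, with a median of -0.16, by sample 0.02, -0.25 and 0.11. The median by sample thus lay on either side of 0, and without replicate 3 it was 0.04. Hic2, a transcriptional repressor, changed by -0.31, with every sample below control, from 10.97, 11.19 and 11.03 to 10.69, 10.82 and 10.75. Others of the list were Igf2bp1, an mRNA-binding protein (-0.15), Mier2 (-0.19), the receptor Notch2 (-0.16), the microtubule protein Map1b (-0.18), Ash1l, a histone methyltransferase (-0.17), Bbx (0.15), Skil, a repressor of Smad signalling (0.10), Lamp2, a lysosomal membrane protein (0.18), and Nemp1 (0.18), which the study calls by an older symbol.

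**Figure D3:**
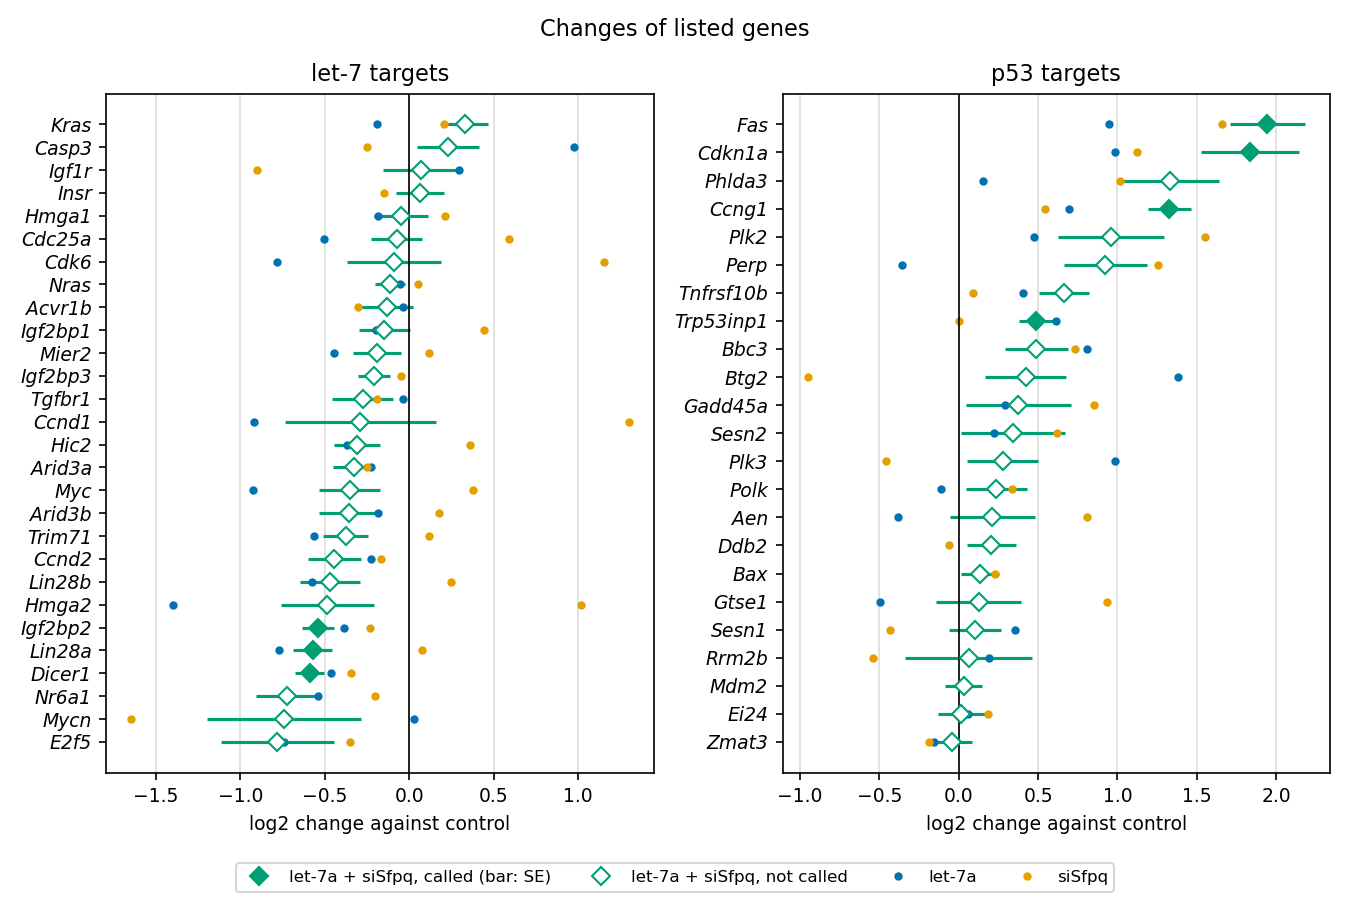
Log2 change against control of each let-7 target and each p53 target tested, with both treatments (diamonds with the SE, filled where called) and with each single treatment (points). Of the let-7 targets 24 of 28 lie below 0 with both treatments and 3 are called, and of the p53 targets 22 of 23 lie above 0 and 4 are called.

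Of the partners of Sfpq, Pspc1 rose and Nono was not called. Pspc1, the paraspeckle partner of Sfpq, stood at 11.02, 11.01 and 11.12 in control and at 11.53, 11.62 and 11.63 with both treatments, a log2 change of 0.55 (SE 0.079, limma adjusted p = 0.0064), beside 0.85 with siSfpq and 0.04 with let-7a. The spread within each condition was small beside that difference. Nono, the other partner, changed by 0.09. Of 16 genes of the Sfpq complex and paraspeckles, Pspc1 alone was called, beside 1.29% of all genes higher. Malat1, a nuclear long RNA, changed by 0.86 and was called only with the replicate as a block, beside 5.34% of all genes higher.

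Of 25 genes of the microRNA machinery 1 rose and 1 fell, beside 1.29% and 0.230% of all genes, and the one that fell was Dicer1. Mov10, an RNA helicase that binds Argonaute proteins, stood at 9.78, 10.06 and 9.83 in control and at 11.04, 10.51 and 11.13 with both treatments, a change of 1.01 (limma adjusted p = 0.0303), beside 0.90 with siSfpq and 0.28 with let-7a. Replicate 3 had the smallest difference. With the replicate as a block Tarbp2, a partner of Dicer, Ago1 and the deadenylase Pan2 were also lower and Ago4 higher.

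The proneural and neuronal lists were those whose medians lay furthest apart between the single treatments. With let-7a alone 19 of 26 neuronal genes rose, beside 4.91% of all genes, with a median of 1.40, and with siSfpq alone 14 fell, beside 7.33%, with a median of -0.88, both against the same control. With both treatments 1 rose and 1 fell, beside 1.29% and 0.230% of all genes, and the median was 0.11, by sample -0.04, 0.19 and 0.03. Without replicate 3 the counts were 5 and 7, beside 10.4% and 7.88% of all genes. These were bulk samples, in which fewer cells of a type and less RNA per cell cannot be told apart.

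Scg2, or secretogranin II, a protein of secretory granules, was the neuronal gene that rose. It stood at 10.18, 9.83 and 10.13 in control and at 11.48, 11.48 and 11.39 with both treatments, a change of 1.41 (SE 0.12, limma adjusted p = 0.000385), beside 2.59 with let-7a and -0.72 with siSfpq. Scg2 thus lay on the side of let-7a.

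Of the 22 proneural factors, transcription factors of neuronal fate, 14 rose with let-7a alone, beside 4.91% of all genes, and 12 fell with siSfpq alone, beside 7.33%, with medians of 1.61 and -1.06. With both treatments 1 rose, beside 1.29% of all genes, and none fell, while 19 of the 22 had values above 0 and the median was 0.49, by sample 0.20, 0.62 and 0.31. The gene that rose was Neurod2, a basic helix-loop-helix factor, which stood at 5.27, 4.81 and 5.14 in control and between 6.86 and 7.08 with both treatments. Its change was 1.90 (SE 0.40, limma adjusted p = 0.0404), beside 3.53 with let-7a, while with siSfpq alone Neurod2 was well above background on 2 of 4 arrays.

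Of 13 noradrenergic genes none was called with both treatments, and the median was 0.22, beside 0.33 with let-7a and -0.31 with siSfpq. Phox2a, a homeobox factor that specifies noradrenergic neurons, changed by 0.32. Of 21 neural progenitor genes none was called either, but 17 had values below 0 and the median was -0.22, by sample -0.30, -0.20 and -0.25, beside 0.14 with let-7a and -0.68 with siSfpq. Sox1, a factor of the neural plate, changed by -0.57 (limma adjusted p = 0.111) and was called only with the replicate as a block (0.00554), as were Pax3, Sox21 and Dbx1. The probes of Sox1 differed in size, at -0.21 and -0.93. Sox3 changed by -0.20. Of 19 neuronal splicing regulators none was called, and Srrm4, which drives neuronal microexons, changed by -0.09 beside 1.78 with let-7a and -2.51 with siSfpq. Srrm3 changed by 0.32. With the replicate as a block Mbnl2, Esrp1 and Esrp2 were called higher and Ptbp2 lower, beside 5.34% and 2.82% of all genes.

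The genes with the largest opposite changes in the single treatments were chosen by those changes as measured, 6 in each direction, and their values with both treatments are given as a description. Several were at background in the condition where they were low, so their size and order there are uncertain. With siSfpq alone St18 and Neurod4 were well above background on no array, Nhlh2 and Rgs4 on 1 of 4, and Dach1 on 2 of 4 with any of its probes. With let-7a alone Grm6 and Chil5 were well above background on no array and B3gnt7 on 2 of 4. Nhlh2, a helix-loop-helix factor of neurons, changed by 3.04 with let-7a and was lower with siSfpq. With both treatments it stood at 6.92, 7.65 and 6.83, beside 7.04, 6.58 and 6.94 in control. Replicates 1 and 2 and replicate 4 were thus slightly below their control and replicate 3 was above it.

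The other 5 genes higher with let-7a and lower with siSfpq all had values above 0 with both treatments, but none was called. St18, a zinc finger factor, changed by 1.29 (limma adjusted p = 0.221), from 6.01, 5.49 and 6.26 to 7.28, 7.07 and 7.27, beside 2.90 with let-7a. Dach1, a transcriptional cofactor, changed by 0.85 beside 2.90 with let-7a. Dbh, or dopamine beta-hydroxylase, which makes noradrenaline, changed by 0.95 beside 2.48 with let-7a and -2.93 with siSfpq, and was bright on every array. Rgs4, a regulator of G-protein signalling, changed by 0.52 beside 2.74 with let-7a, and Neurod4 by 0.58 beside 2.41.

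Of the 6 genes lower with let-7a and higher with siSfpq, 5 had values below 0 with both treatments, and none was called. T, or brachyury, the T-box factor of early mesoderm, stood at 10.28, 9.83 and 10.36 in control and at 9.96, 8.82 and 10.25 with both treatments, a change of -0.48 beside -2.29 with let-7a and 1.91 with siSfpq. Its samples overlapped, and replicate 3 was the lowest in both conditions. Fgf8, a growth factor of gastrulation, changed by -0.52 beside -1.53 and 1.28. Grm6, a glutamate receptor, changed by -0.45, B3gnt7, a glycosyltransferase, by -0.32, Chil5, a chitinase-like gene, by -0.23 and Tcea3, an elongation factor, by 0.21.

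**Figure D4:**
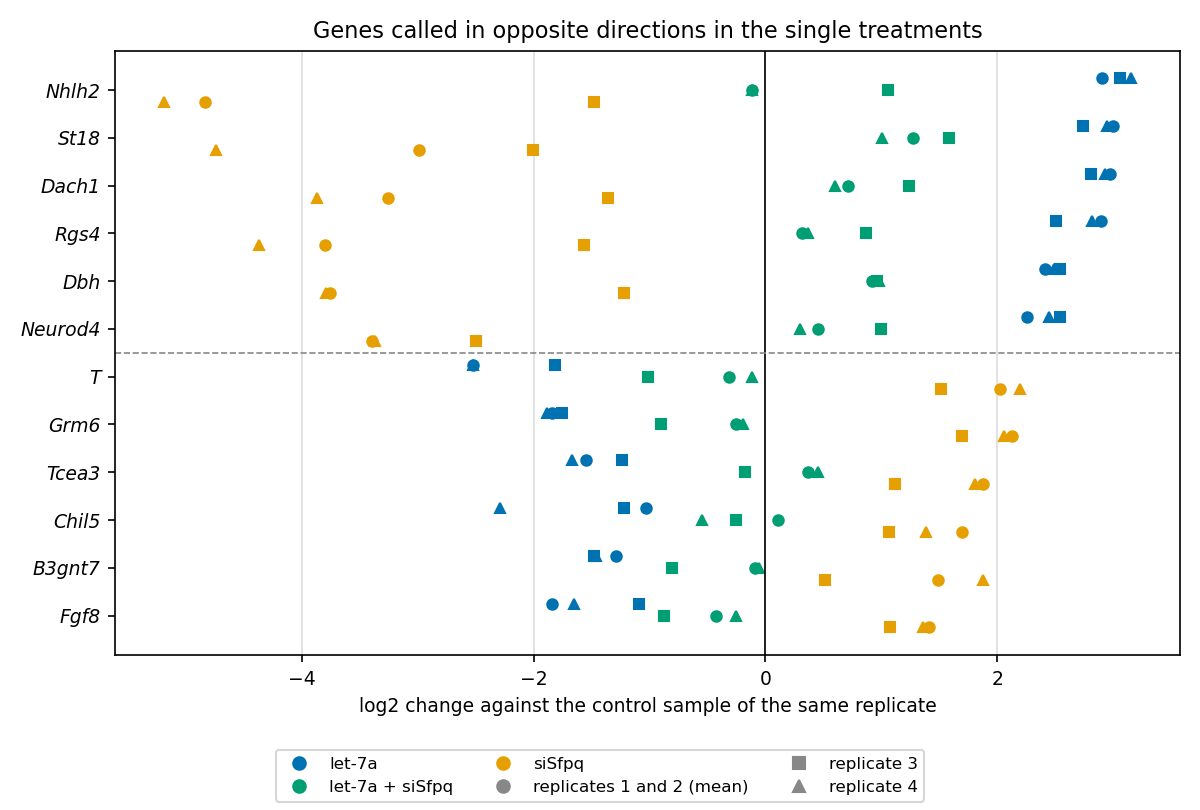
Log2 change against the control sample of the same replicate for the 12 genes with the largest opposite changes in the single treatments, with 1 point for each sample; low single-treatment points of St18, Neurod4, Nhlh2, Rgs4, Dach1, Grm6, Chil5 and B3gnt7 lie at or near background, so their distance from 0 is uncertain. The points of the combined treatment lie between those of the single treatments in each gene, and replicate 3 of siSfpq lies nearer to 0 than the other siSfpq samples.

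The p53 targets, which halt the cell cycle or promote cell death after damage, included 4 that rose and none that fell of 23 tested, beside 1.29% of all genes higher, and 22 had values above 0. The median was 0.34, by sample 0.38, 0.23 and 0.45, beside 0.22 with let-7a, where 6 rose, beside 4.91% of all genes, and 0.33 with siSfpq, where 8 rose and 1 fell, beside 6.30% and 7.33%. With the replicate as a block 8 rose, beside 5.34%, and without replicate 3 12 did, beside 10.4%.

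Cdkn1a, the cyclin-dependent kinase inhibitor p21, stood at 5.06, 4.67 and 4.68 in control and at 7.16, 5.88 and 6.87 with both treatments, a 3.57-fold rise (limma adjusted p = 0.0144), with log2 changes of 1.84 with both, 0.98 with let-7a and 1.13 with siSfpq. Ccng1, or cyclin G1, stood at 9.51, 9.60 and 9.66 in control and at 11.06, 10.60 and 11.10 with both treatments, a 2.51-fold rise (limma adjusted p = 0.00109), with changes of 1.33, 0.69 and 0.55. Fas, the death receptor, stood at 3.65, 3.62 and 3.61 in control and at 5.26, 5.43 and 6.01 with both treatments, and changed by 1.94, beside 0.95 and 1.66. Fas and 1 of the 2 probes of Cdkn1a were above background on 1 of the 4 control arrays, so these control levels are uncertain. The other Cdkn1a probe, bright on every array of both conditions, changed by 1.72. Replicate 3 had the smallest rise in Cdkn1a and Ccng1.

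Trp53inp1, a nuclear protein that p53 induces, stood at 8.66, 8.58 and 8.54 in control and at 9.13, 9.04 and 9.09 with both treatments, a change of 0.49 (limma adjusted p = 0.0495), beside 0.61 with let-7a and 0.00 with siSfpq. Its probes differed in size, at 0.69 and 0.29. The 4 targets called only with the replicate as a block were Phlda3 (1.33), Plk2 (0.96), Perp (0.92) and the death receptor gene Tnfrsf10b (0.66). Mdm2, the ubiquitin ligase of p53, changed by 0.03.

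Epithelial genes had the highest median of all the lists. Of 22 genes of junctions, keratins and epithelial factors 3 rose, beside 1.29% of all genes, and none fell, 20 had values above 0, and the median was 0.66, by sample 0.86, 0.36 and 0.80. With siSfpq alone 12 rose, beside 6.30% of all genes, with a median of 0.76, and with let-7a alone 1 rose, beside 4.91%, with a median of 0.05. With the replicate as a block 13 rose with both treatments, among them Cdh1, or E-cadherin, beside 5.34% of all genes, and without replicate 3 18 did, beside 10.4%.

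Cldn6, a claudin of the embryonic epithelium, stood at 6.40, 6.98 and 6.37 in control and at 9.02, 7.58 and 8.72 with both treatments, a change of 1.86 (SE 0.37, limma adjusted p = 0.0333), beside 3.01 with siSfpq and -0.51 with let-7a. Grhl3, a grainyhead factor of the surface ectoderm, stood at 9.06, 9.03 and 9.06 in control and at 9.94, 9.50 and 9.77 with both treatments, a change of 0.69 (limma adjusted p = 0.0278). Ocln, the tight junction protein occludin, was not well above background on any control array, where its measured levels were 2.70, 1.84 and 2.26, and stood at 5.25, 4.27 and 4.66 with both treatments. Taken against the dimmest signal called above background on each array, it was at least 1.75-fold higher. Ocln entered the test only through the condition with both treatments, where it was high, so its call is given as a description. Replicate 3 rose least in Cldn6 and Grhl3.

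Of 21 mesenchymal genes 1 rose, beside 1.29% of all genes, with a median of 0.16. With the replicate as a block 6 rose and 1 fell, beside 5.34% and 2.82% of all genes. Without replicate 3 the counts were 8 and 3, beside 10.4% and 7.88%. Pdgfrb, a receptor for platelet-derived growth factor, stood at 6.78, 7.38 and 6.83 in control and at 8.57, 8.33 and 8.64 with both treatments, a change of 1.51 (limma adjusted p = 0.0306), beside 0.89 with let-7a and -0.35 with siSfpq. Of 18 extraembryonic and muscle markers 1 rose, beside 1.29% of all genes, with a median of 0.07. It was Apob, the apolipoprotein of visceral endoderm and liver, which was not well above background on any control array, at 3.30, 1.80 and 1.77, and stood at 5.01, 4.49 and 5.48 with both treatments. It was at least 2.10-fold higher. Apob entered the test only through conditions in which it was high, so its call is given as a description. Each of the 4 arrays with siSfpq alone detected it, and none with let-7a alone did.

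The pluripotency genes kept a median near 0, at 0.14 over 24 genes, by sample 0.18, -0.11 and 0.17, and 1 rose, beside 1.29% of all genes. Klf2, a Krüppel-like factor of the ground state, stood at 11.10, 11.23 and 11.24 in control and at 12.25, 11.96 and 12.52 with both treatments, a change of 1.05 (SE 0.14, limma adjusted p = 0.00505), beside 1.05 with siSfpq and 0.35 with let-7a. Pou5f1, the core factor Oct4, changed by 0.00. With the replicate as a block Dppa4, Tfcp2l1 and Fgf4 were also higher, by 1.41, 1.06 and 0.92, and Nanog was lower, by -0.41. Without replicate 3 the counts were 9 higher and 4 lower, beside 10.4% and 7.88% of all genes.

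Of 20 mesendoderm genes 1 rose, beside 1.29% of all genes, 15 had values above 0, and the median was 0.58, by sample 0.77, 0.26 and 0.56, beside 0.64 with siSfpq and -0.21 with let-7a. The gene that rose was Cdx1, a caudal-type homeobox factor that Wnt signals induce, which stood at 5.90, 5.61 and 5.94 in control and at 6.91, 6.35 and 7.20 with both treatments. Its change was 1.01 (limma adjusted p = 0.0447), beside 1.53 with siSfpq and -0.44 with let-7a.

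Among 24 genes of the Wnt pathway 2 rose and 1 fell, beside 1.29% and 0.230% of all genes, with a median of -0.03. Lgr5, a receptor for R-spondins and a Wnt target, stood at 8.60, 9.17 and 8.63 in control and at 10.32, 9.79 and 10.44 with both treatments, a change of 1.38 (SE 0.21, limma adjusted p = 0.0104), beside 0.77 with siSfpq and 0.21 with let-7a. Rspo3, an R-spondin, the ligand of such receptors, stood at 11.35, 11.46 and 11.43 in control and at 10.49, 10.65 and 10.58 with both treatments, a change of -0.84 (limma adjusted p = 0.0413), beside -0.99 with let-7a and -0.61 with siSfpq. The other gene that rose was Cdx1.

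Of 15 interferon-stimulated genes 1 rose, beside 1.29% of all genes, with a median of 0.30. Rsad2, or viperin, an antiviral protein, was not well above background on any control array, at 2.02, 2.10 and 2.10, and stood at 6.05, 5.33 and 5.85 with both treatments. It was at least 3.52-fold higher. Rsad2 entered the test only through conditions in which it was high, so its call is given as a description. Each of the 4 arrays with let-7a alone detected it, and none with siSfpq alone did. Stat2, Bst2 and Ifi35 were called as well with the replicate as a block.

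Among 19 retinoic acid genes 2 rose, beside 1.29% of all genes, with a median of 0.09. Aldh1a1 is described above, and Dhrs3, which reduces retinaldehyde to retinol, stood at 12.28, 12.49 and 12.38 in control and at 13.26, 13.06 and 13.31 with both treatments, a change of 0.83 (SE 0.16, limma adjusted p = 0.0308), beside 0.50 with let-7a and 0.36 with siSfpq. Of 18 Yap targets only Nt5e rose, beside the same share.

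In 10 lists beside those of the nervous system no member was called with both treatments. Of 30 cell cycle genes the median was -0.09, beside -0.37 with let-7a and 0.24 with siSfpq, and Ccna2 and Ccnb1, the cyclins of S phase and mitosis, changed by -0.21 and -0.12. Of 22 genes of the integrated stress response the median was 0.29, beside 0.68 with siSfpq, where 8 rose, beside 6.30% of all genes. The factors Atf4 and Atf3 changed by 0.17 and 0.53 with both treatments. By sample that median was 0.10, 0.21 and 0.13. Of 22 glycolytic and hypoxia genes the median was 0.19, beside -0.55 with siSfpq, and Hk2, or hexokinase 2, changed by 0.36. Of 22 cholesterol synthesis genes the median was -0.12.

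Of 22 genes of ERK feedback and the immediate early response the median was 0.24, and Fos, which growth signals induce, changed by 1.29 (limma adjusted p = 0.106, or 0.0335 with the replicate as a block). Of 20 Notch pathway genes the median was 0.01, and Notch1 changed by -0.62. The endoplasmic reticulum chaperones had a median of -0.04 over 20 genes, with Hspa5, or BiP, at 0.00. The collagens, laminins and integrins had a median of -0.09 over 25 genes. The imprinted growth genes had a median of -0.00 over 13 genes, with Igf2 at -0.55 and H19 at -0.27. The cytosolic ribosomal proteins lay closest together, between -0.08 and 0.09 over 22 genes, with a median of -0.01.

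Leaving out replicate 3 brought calls into most of these lists, in a fit that called 10.4% of all genes higher and 7.88% lower. The integrated stress response then had a median of 0.11 with 9 higher and 5 lower, and the glycolytic and hypoxia genes one of 0.31 with 9 higher. The ERK list had a median of 0.37 with 11 higher and 1 lower, and 7 cholesterol synthesis genes were lower at a median of -0.14. Of the lists of the nervous system, 5 noradrenergic genes were higher at a median of 0.04, and 7 neural progenitor genes were lower at -0.26. No ribosomal protein gene was called.

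**Figure D5:**
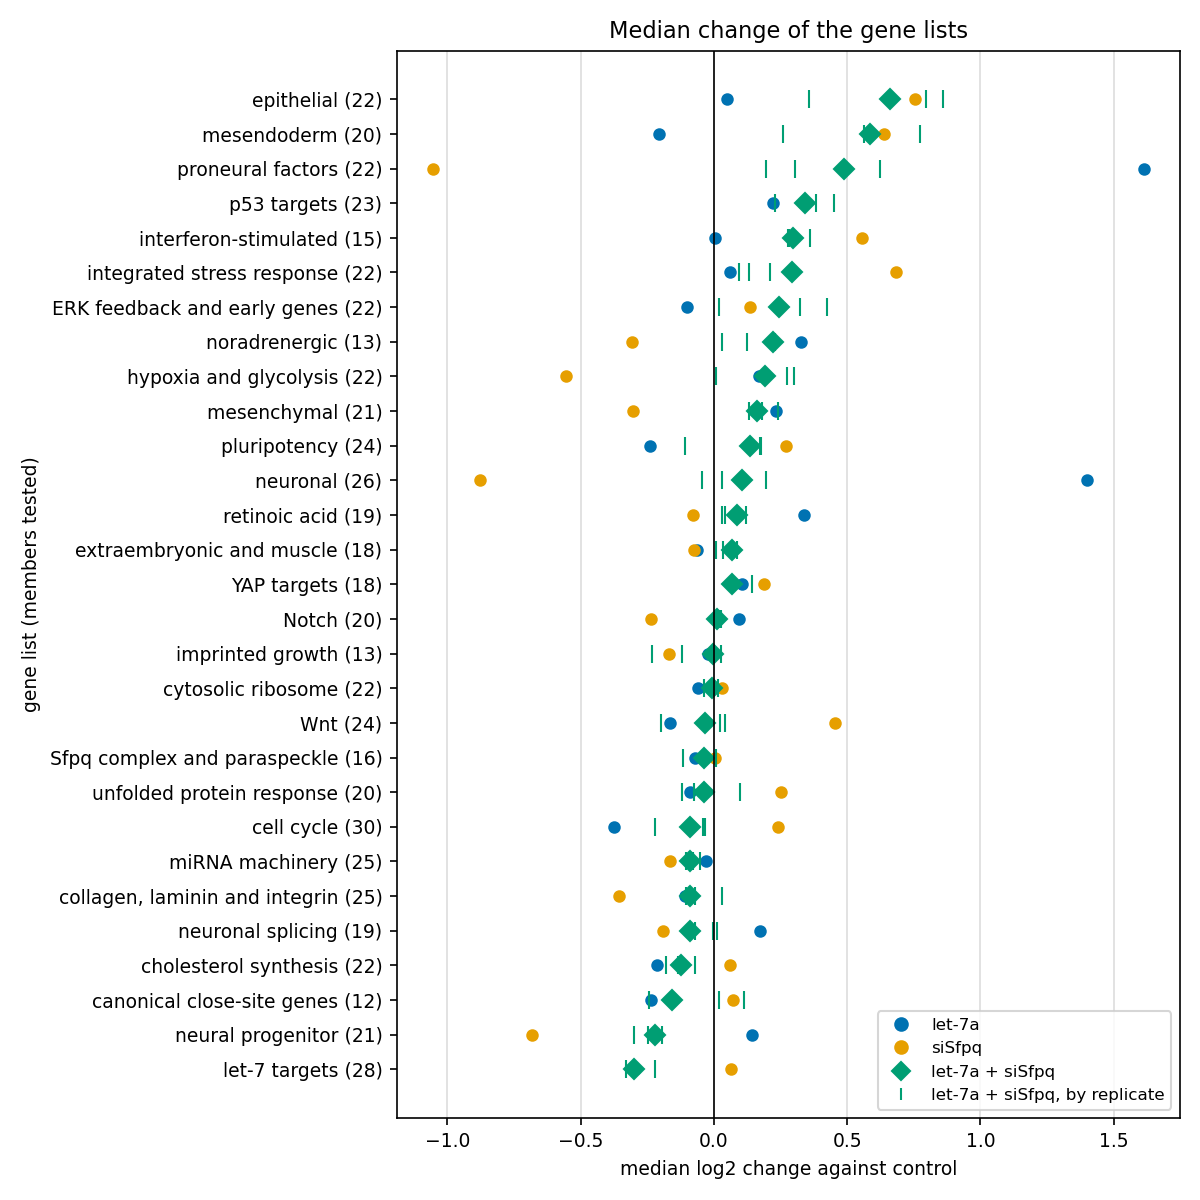
Median log2 change against control of the 29 gene lists, with both treatments (diamonds, and bars for each sample) and with each single treatment (points), and the number of members tested in brackets. The epithelial list has the highest median with both treatments, 0.66, and the let-7 targets the lowest, -0.30, while the neuronal and proneural lists lie between their far apart single-treatment values.

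The sum of the 2 single changes gives what a gene would show if each treatment acted alone on the log2 scale. Over the 236 genes that rose, the median sum was 1.41 beside a median of 1.16 with both treatments, and over the 42 that fell it was -1.03 beside -0.72. A departure from that sum passed the test in no gene (limma, smallest adjusted p = 0.172), with 1153 genes at an unadjusted p under 0.05, and in 4 genes with the replicate as a block. These were Ptchd1, Rnf182, Ecel1 and Pdlim3, which departed by -2.81, -2.44, -1.70 and -1.38 (blocked limma adjusted p = 0.0173, 0.0173, 0.0207 and 0.0222) and whose changes with both treatments were 0.86, 0.48, 0.13 and 1.06.

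Without replicate 3 the departure passed in 4066 genes, of which 3729 lay nearer to control with both treatments than the sum of their single changes and 337 lay farther. Since these genes were called on that same difference, and the sum carries the noise of both single changes, the split describes them and tests nothing. The fit without replicate 3 kept 4 residual degrees of freedom, and without replicate 4 none passed. The lower Sfpq knockdown of the combination in replicates 1 and 2 and in replicate 4 stands beside this count, and its part was not tested.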

How the data were processed

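RNA from P19 cells was labelled with Cy3 and hybridized to 1-colour Agilent mouse arrays, 4 per condition. The authors deposited the scanner output of Agilent Feature Extraction 10.7.3.1, in which gProcessedSignal is a background-subtracted intensity per spot, and a value table whose log2 values the authors had quantile normalized with limma. The design coordinates were those of mm9 per the file headers. The methods named 3 replicates, whereas 4 arrays per condition were deposited. The methods named RNeasy and the labels miRNeasy columns for extraction.

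Here, log2 intensity was quantile normalized between arrays, spots of a probe were averaged, and probes that the scanner called above background in every array of 1 condition or more were averaged by gene. Of 55681 probes, 28348 were named through RefSeq accessions, 8157 by the file and 271 through an older symbol, and 16194 named only by region and 2711 without a name were left out. Arrays 1 and 2 of each condition differed between single spots of 270 repeated probes with a spread (scaled median absolute deviation, log2) of 0.065 to 0.086, against 0.085 to 0.091 for differences between spots of 1 array (from their median SD) and 0.270 to 0.450 between arrays 3 and 4, and were averaged. limma 3.58.1 in R 4.3.3 was fitted to all 12 samples (lmFit, eBayes with trend, 8 residual degrees of freedom), with Benjamini-Hochberg adjustment over 18247 genes and a threshold of 0.05. The fit was tested on simulated data. Replicate numbers paired the samples, since deviations of samples with the same number from their condition means correlated at 0.285 or more in every pair (0.410 or more between control and both treatments). Replicates 1 and 2 lay on one slide and replicates 3 and 4 on the other, in all conditions.

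Named genes were the 10 largest rises and falls among called genes with a symbol, bright on all arrays of both conditions and not overlapping, together with Sfpq, Nono, Pspc1, the 12 canonical genes, up to 4 called members of each list (otherwise its first 2) and the 6 largest opposite responses each way. Further listed members are named where the text describes calls with the replicate as a block. They and Lrig3 were chosen after their values were seen. A gene not well above background on any control array was compared with the lowest signal called above background on each array, and its fold is given as a lower bound. A few genes that this rule names are not reported here. Members and lists were chosen with earlier results of these data known. The alternatives tried were other normalizations, background corrections, filters, probe choices, variance models, blocks, the deposited values and the omission of replicates.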

Additional observations from a re-analysis of the deposited data

How the results depend on the processing

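None of the 43 named genes called reversed its direction under the alternatives in which it was tested, nor did Sfpq, while the median of the canonical genes, with no test, rose above 0 without replicate 3. Each group held 3 samples, and genes that were not called are not shown to be unchanged. Counts are given as genes higher and genes lower with both treatments, after 236 and 42. They were 187 and 29 with scaling to the 75th percentile, 224 and 52 with normexp, 176 and 41 with the strict filter, 200 and 40 from the deposited values, 259 and 57 with only the 2 conditions in the fit, and 242 and 51 with the slide as a block. They were 162 and 20 with no filter on dim probes, 140 and 10 with a change of at least 2-fold required, 930 and 502 with the 16 arrays counted separately, 974 and 514 with the replicate block, and 2199 and 1965 with both of these. Leaving out replicates gave 0 to 1890 higher and 0 to 1439 lower, with 1890 and 1439 without replicate 3 and none without replicate 4 or within the slide that holds replicates 3 and 4. For let-7a alone, with arrays counted separately, with the replicate block and with both, the counts were 1962, 2116 and 3305 higher and 1647, 1868 and 3767 lower, and 2 to 2831 higher and 0 to 2665 lower with replicates left out. For siSfpq alone they were 3223, 3366 and 5118 higher and 3331, 3530 and 5089 lower, 694 and 798 with no filter, and 0 to 4346 and 0 to 4634 with replicates left out. A departure from additivity, called in no gene, was called in 5 genes with no filter, 186 with arrays separate, 4 with the replicate block, 2705 with both and 0 to 4066 with replicates left out. Of the listed genes 20 were higher and 5 lower, and these counts became 13 and 2 with no filter, 70 and 29 with arrays separate, 69 and 28 with the replicate block, 129 and 65 with both, and 0 to 135 and 0 to 70 with replicates left out. The listed genes called lower were also 2 with scaling to the 75th percentile and 3 without the variance trend. Of the 20 largest rises and falls 7 were called with no filter and 0 to 20 with replicates left out. Sfpq passed the threshold at -0.64 with arrays separate, with or without the replicate block, at -0.61 with only the 2 conditions in the fit, and at -0.67 without replicate 3, in a range of -0.67 to -0.53 with replicates left out. Of the 43 named genes called, 43 were called with the replicate block and 18 with no filter. Of 493 list medians under the alternatives 452 moved by less than 1 SD of the replicates. The cause of the differences between settings was not tested.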
